A study of Mus musculus with 24 samples.

Results

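The miR-23, miR-27 and miR-24 families are made from a pair of paralogous clusters, in which hairpins of the 3 families lie side by side. The deposited table names 1966 mature miRNAs, and 9 of them are described here. They are mmu-miR-23a-3p, mmu-miR-27a-3p, mmu-miR-27a-5p and mmu-miR-24-2-5p of the a cluster, mmu-miR-23b-3p, mmu-miR-27b-3p, mmu-miR-27b-5p and mmu-miR-24-1-5p of the b cluster, and mmu-miR-24-3p, which both clusters give. The species prefix is left out from here on. The families were selected on measured values as well as on their names, since miR-27b-3p was already known to differ in the libraries taken 24 h after surgery. Members are therefore described in contrasts with those libraries with no p, and nothing is read from counts of miRNAs called there. For miR-27b-3p the contrasts with Control, whose libraries served in that choice, are also descriptions.

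Small RNA was sequenced from extracellular vesicles (EVs) of mouse serum, with 1 library for each of 24 mice. The mice were wild type males of the strain C57BL/6, 14 to 16 weeks old, and 6 of them formed each group. The Control mice had no operation and received saline. The S6h, S24h and S72h mice had an open tibia fracture stabilized with a pin, under isoflurane and buprenorphine, and were bled 6, 24 or 72 h later. The S24h and S72h mice also received buprenorphine each day. Controls were kept for each animal set, and by the methods the set of the late groups had controls of its own, which were not analysed here. Time after surgery can therefore not be told apart from the animal set or from repeated analgesia in contrasts of the late groups with Control or S6h. EVs were precipitated from serum with a commercial kit, so other carriers of RNA can be present.

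A primary transcript of each cluster is cut by Drosha into hairpins and by Dicer into mature arms, and 1 arm of a hairpin usually prevails. Both clusters are known from endothelium, muscle, blood cells and fat cells, where miR-23 and miR-27 act in vessel growth, miR-27 in lipid metabolism and adipocyte differentiation, and miR-24 in cell cycle control. miR-23a-3p is also widely used as the reference in a ratio with miR-451a, an abundant miRNA of red cells, that is read as a sign of lysed red cells in serum.

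The a cluster lies on the + strand of chromosome 8 in GRCm38 and spans 404 bases from 84208518 to 84208921, with the hairpins Mir23a, Mir27a and Mir24-2 in this order. No other gene of the annotation covers these hairpins whole, and Mir24-2 overlaps an exon of the long noncoding RNA Gm26532. The b cluster lies on the + strand of chromosome 13 and spans 792 bases from 63300484 to 63301275, with Mir23b, Mir27b and Mir24-1. All 3 hairpins lie within the protein-coding gene 2010111I01Rik on the same strand and within Fancc on the opposite strand, and Mir27b and Mir24-1 overlap exons of 2010111I01Rik. Mir3074-2 and Mir3074-1 lie antisense to Mir24-2 and Mir24-1, and the table has rows of its own for their arms, with 198 counts for miR-3074-5p, 5 for miR-3074-1-3p and 0 for miR-3074-2-3p. The strand setting of the counting is not given in the sources used here, so whether any reads of these partners were counted for miR-24 was not tested.

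**Figure D1:**
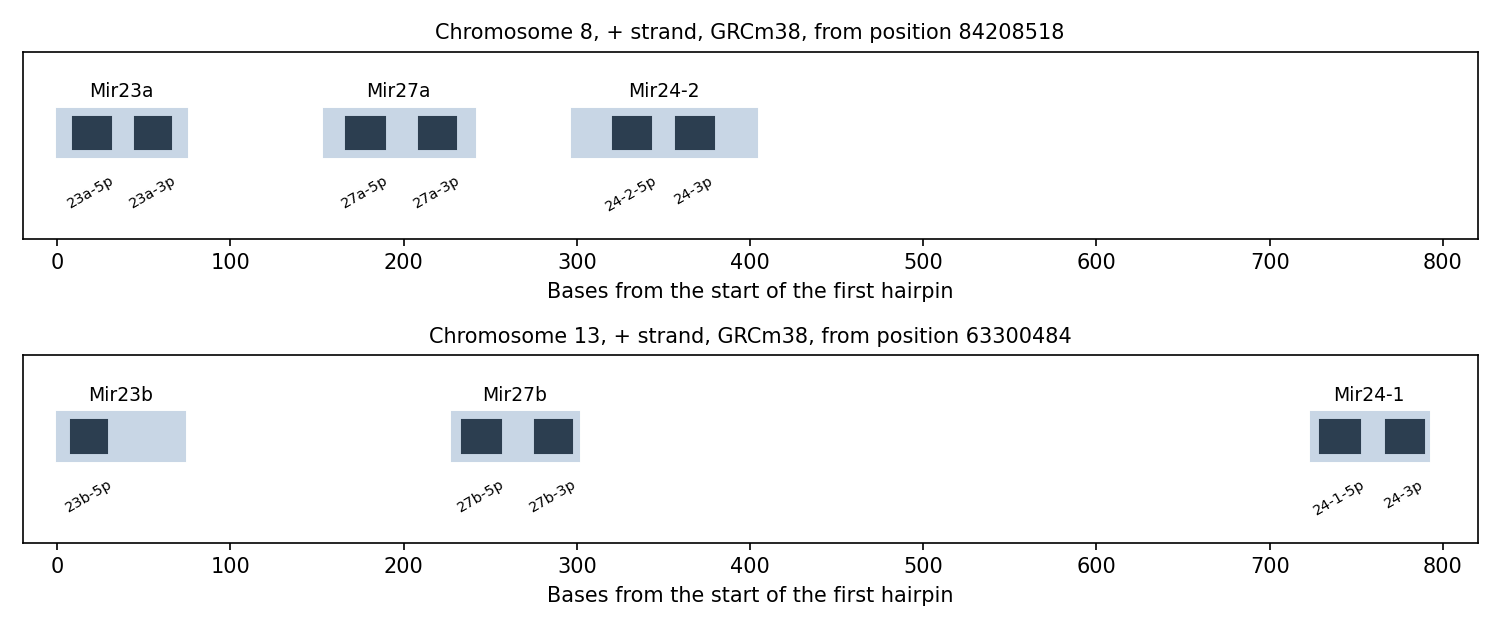
Map to scale of both clusters on GRCm38, with the distance in bases from the start of the first hairpin on the x axis. Light boxes are hairpins and dark boxes are mature arms with an entry in the RefSeq table; the a cluster spans 404 bases and the b cluster 792 bases.

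Of the 9 members 8 were matched to a mature sequence of RefSeq for GRCm38, all but miR-23b-3p. Those below are shown because they decide which members a read can tell apart, with the seed (bases 2 to 8, the main determinant of target pairing) in capitals.
miR-23a-3p: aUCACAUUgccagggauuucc
miR-27a-3p: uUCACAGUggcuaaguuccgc
miR-27b-3p: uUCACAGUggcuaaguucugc
miR-24-3p: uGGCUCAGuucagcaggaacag
miR-24-2-5p: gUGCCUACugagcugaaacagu
miR-24-1-5p: gUGCCUACugagcugauaucagu
miR-27a-3p (chr8:84208727-84208747) and miR-27b-3p (chr13:63300760-63300780) share their seed and differ by the single substitution C19U, counted from the 5′ end of miR-27a-3p. A sequencing error at that base would move a read from the one to the other. miR-24-3p has the same sequence at chr8:84208875-84208896 and chr13:63301251-63301272, so its reads cannot be assigned to a cluster, and how the authors counted reads with several positions is not given in the sources used here. Its 5p partners share the seed UGCCUAC and their first 16 bases, and differ toward the 3′ end.

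Levels are given in CPM, the counts of a miRNA for each 1000000 counts of its library. The column totals ran from 63956 to 471801 counts, with medians of 117578.5 in Control, 177467.5 in S6h, 75030.0 in S24h and 94427.5 in S72h. At these depths 3 counts, the limit that a count of 0 allows, correspond to 6.36 to 46.9 CPM. Reads were amplified by PCR, so such limits cover counting error only. The members made up a median of 8.55% of the counts of a Control library, 10.2% in S6h, 5.58% in S24h and 6.84% in S72h. The share ran from 4.89 to 12.8% within Control and from 3.98 to 9.75% within S24h, so the groups overlapped. S72h replicate 4 stands apart, with a TMM factor of 0.599 beside 0.807 to 1.21 in the other 23 libraries and with 299754 CPM of liver miRNAs. CPM rest on column totals, so its CPM lie below its TMM-scaled values, which the tests use. Without this library the 2 calls for S72h against S6h given below were kept (edgeR adjusted p = 0.0125 for miR-27b-3p and 0.0452 for miR-24-3p).

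All 9 members had counts, but 6 passed the filter for testing, which asked for at least 10 CPM in at least 12 libraries. These 6 were detected in all 24 libraries. miR-27a-5p had 83 counts in 11 libraries, miR-27b-5p 57 counts in 10 libraries and miR-24-1-5p 31 counts in 5 libraries, and these 3 arms are too sparse for a comparison.

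In each hairpin whose arms could be compared the 3p arm prevailed. Over all libraries miR-23a-3p had 349 counts for each count of miR-23a-5p, miR-27a-3p had 204 for each of miR-27a-5p, miR-23b-3p had 100 for each of miR-23b-5p, and miR-27b-3p had 445 for each of miR-27b-5p. For miR-24 the arms were less unequal, with 15.1 counts of miR-24-3p for each of miR-24-2-5p. The 5p arm that identifies Mir24-2 had 198 counts for each count of the 5p arm that identifies Mir24-1, and 437 without Control replicate 1, which held 18 of the 31 counts of the latter. miR-23a-5p and miR-23b-5p are the other arms of member hairpins, with 406 and 39 counts. In the S24h libraries miR-23a-5p ran from 0 to 630 CPM with a median of 432, against 0 to 194 with a median of 23.5 in Control, and the groups overlapped.

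Of the 6 members tested, those with a sequence in the reference have 21 or 22 bases, and CPM are set side by side with no correction for length, although arms can differ in how well they are captured in a library. In Control, miR-23a-3p had the highest level with 39928 ± 15304 CPM (SD, n = 6) and miR-24-3p followed with 30021 ± 7475 CPM. Within libraries miR-23a-3p exceeded miR-24-3p in 5 of 6 Control mice, so the order of this pair held in most mice although their ranges overlapped. miR-27b-3p with 8273 ± 2432 CPM and miR-27a-3p with 5241 ± 1981 CPM came next, and then miR-24-2-5p with 2143 ± 1032 CPM and miR-23b-3p with 1045 ± 425 CPM. miR-27b-3p and miR-27a-3p overlapped, as did miR-24-2-5p and miR-23b-3p. The a copy was thus the more abundant for miR-23 and the less abundant for miR-27.

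**Figure D2:**
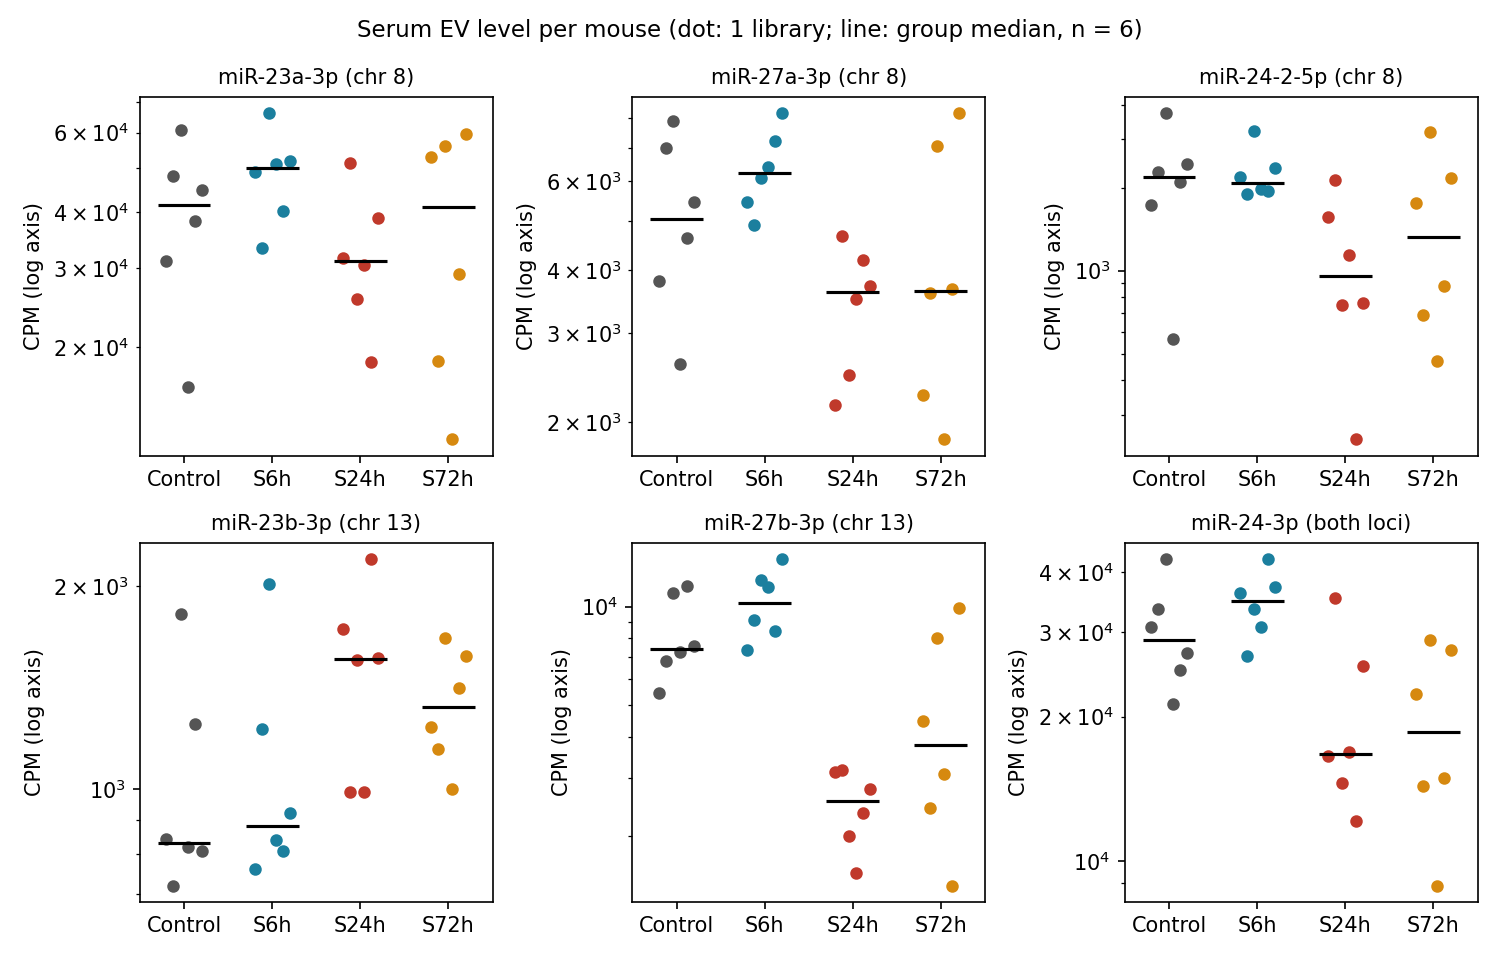
CPM per library on a log axis for the 6 members that passed the filter, by group, with 1 dot for each mouse and a line at the median of 6. The 6 S24h libraries of miR-27b-3p lie between 1545 and 3184 CPM, below the lowest Control library at 5452 CPM.

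miR-27b-3p, the b copy of the family known from lipid metabolism, ran from 5452 to 11549 CPM in Control with a median of 7424. It ran from 7364 to 13950 CPM in S6h (median 10259.6) and from 1545 to 3184 CPM in S24h (median 2567). In S72h it ran from 1415 to 9911 CPM with a median of 3789.9. All 6 S24h mice were below all Control and S6h mice, while the S72h mice were spread from below the S24h range into the Control range. Of the 252 miRNAs tested, 2.38% had all 6 S24h mice below all Control mice, and 5.56% had all of them below all S6h mice. As the members were chosen with S24h values known, nothing is read from this separation. The log2 fold change of miR-27b-3p was -1.88 ± 0.33 (SE) for S24h against Control and -2.30 ± 0.33 for S24h against S6h. The median of all tested miRNAs was itself at -0.21 for S24h against Control with TMM scaling, and at -0.04 with column totals. Relative to those medians the value of miR-27b-3p was -1.68 with TMM and -1.69 with column totals.

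In the contrast of S72h with S6h miR-27b-3p was lower, with a log2 fold change of -1.11 ± 0.33 (SE, edgeR quasi-likelihood test, Benjamini-Hochberg adjusted p = 0.0266). All 6 S72h mice were below the S6h median, and 4 of them were below the lowest S6h mouse. The means are those of the 12 libraries compared, but TMM scaling and the spread are estimated from all 24. The log2 fold change was -1.22 without S24h replicate 6, and with the libraries of S72h and S6h alone it was -1.10 with an edgeR adjusted p of 0.0581. Over all 7 alternatives of the fit the edgeR or DESeq2 adjusted p ran from 0.00831 to 0.0962, the latter with no filter on low counts. The threshold was no longer passed without S6h replicate 4 (edgeR adjusted p = 0.0699), S6h replicate 6 (0.0742), S72h replicate 2 (0.0747) or S72h replicate 5 (0.0677). Against Control, whose libraries are also those of the S24h contrast, the values are a description, at -0.70 ± 0.33 for S72h and 0.41 ± 0.33 for S6h.

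miR-27a-3p, the a copy with the same seed, ran from 2607 to 7912 CPM in Control with a median of 5054. It ran from 4919 to 8199.7 CPM in S6h (median 6242) and from 2164 to 4675 CPM in S24h (median 3615). In S72h it ran from 1849 to 8206 CPM with a median of 3644. The S24h mice were all below the S6h mice, as for 5.56% of the 252 miRNAs tested, and nothing is read from this separation. They overlapped with Control, and S72h overlapped with all other groups. On the log2 scale the fold change was -0.74 ± 0.29 (SE) for S24h against Control and -1.12 ± 0.29 for S24h against S6h. For S72h against S6h it was -0.62 ± 0.29 and did not pass the threshold (edgeR adjusted p = 0.208), except without S72h replicate 6 (edgeR adjusted p = 0.0459). The values for S72h and S6h against Control were -0.24 ± 0.29 (edgeR adjusted p = 0.736) and 0.37 ± 0.29 (edgeR adjusted p = 0.991).

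miR-23a-3p, a member known from vessels and muscle, ran from 16315 to 60946 CPM in Control with a median of 41458. It ran from 33284 to 66395 CPM in S6h (median 50004) and from 18615 to 51260.2 CPM in S24h (median 31107). In S72h it ran from 12503 to 59471 CPM with a median of 41084. The 4 groups overlapped, with 4 S24h mice and 3 S72h mice below the lowest S6h mouse. Its log2 fold change was -0.43 ± 0.33 (SE) for S24h against Control and -0.80 ± 0.33 for S24h against S6h. None of the tested contrasts passed, with -0.39 ± 0.33 for S72h against S6h (edgeR adjusted p = 0.621), -0.02 ± 0.33 for S72h against Control (edgeR adjusted p = 0.986) and 0.37 ± 0.33 for S6h against Control (edgeR adjusted p = 0.991). The sign of the S72h value against Control was not stable, as it lay at 0.07 with the libraries of these 2 groups alone.

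miR-23b-3p, the b copy of miR-23, had the lowest median of the 6 members tested in Control and S6h, but in S24h and S72h that of miR-24-2-5p was lower. It ran from 719 to 1823 CPM in Control (median 831) and from 761 to 2018 CPM in S6h (median 881). It ran from 989 to 2196 CPM in S24h (median 1559) and from 1001 to 1679 CPM in S72h (median 1326). In CPM of column totals all 6 S24h mice and all 6 S72h mice were above the Control median, yet the ranges overlapped through 2 high Control mice. The log2 fold change for S24h against Control was 0.36 ± 0.30 (SE), and it was 0.53 with RLE scaling and with column totals. For S72h it was 0.43 ± 0.30 against Control (edgeR adjusted p = 0.463) and 0.31 ± 0.30 against S6h (edgeR adjusted p = 0.673), and for S6h against Control 0.12 ± 0.30 (edgeR adjusted p = 0.991). The smallest library value rests on 46 counts, for which counting error alone amounts to 14.7%.

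miR-24-3p, the arm that both clusters give and a known regulator of the cell cycle, ran from 21284 to 42524 CPM in Control with a median of 28871. It ran from 26733 to 42440.1 CPM in S6h (median 34871) and from 12134 to 35230.4 CPM in S24h (median 16729). In S72h it ran from 8904 to 28883 CPM with a median of 18584. Of the S24h mice, 4 were below the lowest Control mouse and 1 was above the Control median. The log2 fold change was -0.75 ± 0.28 (SE) for S24h against Control and -1.01 ± 0.28 for S24h against S6h. For S72h against Control it was -0.60 ± 0.28 and did not pass (edgeR adjusted p = 0.243), and for S6h against Control it was 0.26 ± 0.28 (edgeR adjusted p = 0.991).

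In the contrast of S72h with S6h, miR-24-3p was lower by a log2 fold change of -0.85 ± 0.28 (SE, edgeR adjusted p = 0.0488), and all 6 S72h mice were below the S6h median. This p lies next to the threshold. It was passed with DESeq2 (adjusted p = 0.0145) and with a mean of at least 100 CPM (edgeR adjusted p = 0.0416). It was missed with RLE scaling (edgeR adjusted p = 0.0598), column totals (0.091), no filter (0.168) and the libraries of the 2 groups alone (0.0633). It was passed in 10 of 24 fits with 1 library left out. The call was lost without Control replicates 1, 2, 5 or 6 (edgeR adjusted p of 0.0519, 0.0584, 0.0539 and 0.055), S6h replicates 1, 4, 5 or 6 (0.0648, 0.0833, 0.0966 and 0.0945), S24h replicates 1, 3 or 4 (0.055, 0.0519 and 0.0597) and S72h replicates 2, 3 or 5 (0.123, 0.0622 and 0.115). The log2 fold change itself stayed between -0.97 and -0.76 in these 24 fits.

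miR-24-2-5p, the arm that marks the a cluster, ran from 566 to 3741 CPM in Control (median 2193) and from 1897 to 3206 CPM in S6h (median 2085.5). It ran from 244 to 2141 CPM in S24h (median 952) and from 469 to 3192 CPM in S72h (median 1319.9). The S24h mice were all below the Control median, but only 1 of them was below the lowest Control mouse, so the ranges overlapped. Its log2 fold change was -1.10 ± 0.41 (SE) for S24h against Control and -1.26 ± 0.41 for S24h against S6h. The tested contrasts did not pass, with -0.63 ± 0.41 for S72h against S6h (edgeR adjusted p = 0.437), -0.47 ± 0.41 for S72h against Control (edgeR adjusted p = 0.609) and 0.15 ± 0.41 for S6h against Control (edgeR adjusted p = 0.991). In the smallest value 18 counts were read, with a counting error of 23.6%.

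Calls needed an adjusted p below 0.05, by the method of Benjamini and Hochberg, together with a change of 1.5-fold or more. Between S6h and Control 0 of the 5 tested members other than miR-27b-3p were called by edgeR, as were 0% of the 252 tested miRNAs. An unadjusted p under 0.05 was reached by 0 of the 5 and by 9 miRNAs in all, and DESeq2 called 0 of the 252. Between S24h and Control 1 of 6 members was called, miR-27b-3p, beside 11.9% of all tested miRNAs. That contrast was in view when the members were chosen, so nothing is read from the count. It was 4 of 6 without Control replicate 4, beside 39 of all 252, and 3 of 6 without S24h replicate 2, beside 42 of all 252. The calls over all miRNAs were 10 higher and 20 lower with TMM, 17 higher and 20 lower with column totals, 18 higher and 19 lower with RLE scaling and 23 higher and 27 lower with DESeq2.

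Between S72h and Control 0 of the same 5 members were called by edgeR, beside 3.57% of all tested miRNAs. An unadjusted p under 0.05 was reached by 1 of the 5, miR-24-3p, beside 48 of all 252 miRNAs, and DESeq2 called 0 of the 5, beside 21 of the 252. Over all miRNAs 5 were higher and 4 lower with TMM, and 0 higher and 2 lower with column totals. Between S72h and S6h 2 of 6 members were called, miR-24-3p and miR-27b-3p, beside 9.92% of all tested miRNAs, and both were lower, as were 5.56% of all. Over all miRNAs 11 were higher and 14 lower, and 21 higher and 14 lower with DESeq2. The number of members called was 0 with no filter, beside 23 of 667, and with the libraries of 2 groups only, beside 23 of 252. It was also 0 without S6h replicates 4 or 6 or S72h replicates 2 or 5, beside 14, 16, 17 and 13 of 252. Without S72h replicate 6 it was 3, beside 30 of 252. With all 24 libraries and TMM the members' median log2 fold change was -0.62 for S72h against S6h and that of all tested miRNAs 0.04. For S24h against Control the medians were -0.75 and -0.21, for S72h against Control -0.36 and -0.06, and for S6h against Control 0.31 and -0.02. The median is a description of 6 miRNAs that partly share transcripts and are not replicates of each other.

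A ratio of counts within a library does not depend on how libraries are scaled. The ratios were compared as means of log2((count + 0.5)/(count + 0.5)), by an exact two-sided permutation test over the 924 splits of 12 libraries, with Benjamini-Hochberg adjustment over 18 tests. Of these, 4 compare ratios of miR-27b-3p with Control, whose libraries served in the choice of the members, and their results are given as a description. An adjustment over the other 14 tests was added after seeing the data. The smallest p these splits can give is 0.00216. The ratios with S24h libraries were not tested.

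Between the neighbours miR-27b-3p and miR-23b-3p of the b cluster, the ratio of miR-27b-3p to miR-23b-3p ran from 6.00 to 9.39 in Control (median 9.02) and from 5.95 to 15.1 in S6h (median 9.99). It ran from 1.07 to 3.20 in S24h (median 1.67) and from 1 to 6.27 in S72h (median 3.35). The S24h mice lay below all Control and S6h mice, and the S72h mice were all below the medians of Control and S6h, with some overlap. In S72h the mean log2 ratio was lower than in S6h by -1.72 (exact permutation test, p = 0.00433). The adjusted p was 0.039 over 18 tests, but 0.0606 over the 14 that do not use miR-27b-3p in Control, so the difference did not pass once the tests not used here were left out. Over 18 tests the adjusted p was 0.117 with medians in place of means (exact permutation test). Without S72h replicate 5, whose library held 92 counts of each miRNA, the difference was -1.40 and the adjusted p 0.0584 in the exact test. The threshold was also missed in the exact test over 18 tests without S6h replicates 1, 2, 4, 5 or 6, with adjusted p of 0.0584, 0.0584, 0.0779, 0.0584 and 0.0779. The differences from Control were -1.43 for S72h and 0.28 for S6h, and that of S72h was -1.12 without S72h replicate 5.

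In the a cluster, the ratio of the neighbours miR-27a-3p and miR-23a-3p ran from 0.122 to 0.16 in Control (median 0.126) and from 0.0916 to 0.18 in S6h (median 0.137). It ran from 0.0685 to 0.225 in S24h (median 0.0963) and from 0.0428 to 0.194 in S72h (median 0.132). All groups overlapped. The differences in log2 ratio were -0.004 for S6h against Control, -0.17 for S72h against Control and -0.17 for S72h against S6h, and none passed the exact permutation test (adjusted p = 0.985 in each). Whether the neighbours of the a cluster and those of the b cluster differed in their change was not tested.

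The ratio of miR-27a-3p to miR-27b-3p, the copies with the same seed, ran from 0.359 to 1.03 in Control (median 0.711) and from 0.506 to 0.859 in S6h (median 0.574). This ratio follows from 3 of the others. It ran from 0.691 to 2.27 in S24h (median 1.40) and from 0.506 to 2.59 in S72h (median 0.853). miR-27a-3p had more counts than miR-27b-3p in 1 of 6 Control, 0 of 6 S6h, 5 of 6 S24h and 2 of 6 S72h mice. In S72h the log2 ratio differed from S6h by 0.65 and did not pass the exact permutation test (adjusted p = 0.474). The differences from Control were 0.66 for S72h and 0.02 for S6h.

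The ratio of miR-23a-3p to miR-23b-3p had medians of 35.1 in Control, 52.7 in S6h, 21.5 in S24h and 26.9 in S72h, over a range from 8.45 to 66.3 in all mice. The a copy was in excess in each of the 24 libraries. As miR-23b-3p had no sequence in the reference, how well reads tell the miR-23 copies apart was not tested. The log2 ratio differed by -0.91 between S72h and S6h, with all 6 S72h mice below the S6h median, but the adjusted p was 0.195 in the exact permutation test. The differences from Control were -0.60 for S72h and 0.30 for S6h (exact permutation tests, adjusted p = 0.474 and 0.682). The ratio of miR-24-3p to miR-24-2-5p had medians of 13.3, 15.7, 17.8 and 14.8 in Control, S6h, S24h and S72h. Its tested differences lay between -0.10 and -0.03 in log2, with an adjusted p of 0.985 in each exact permutation test.

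**Figure D3:**
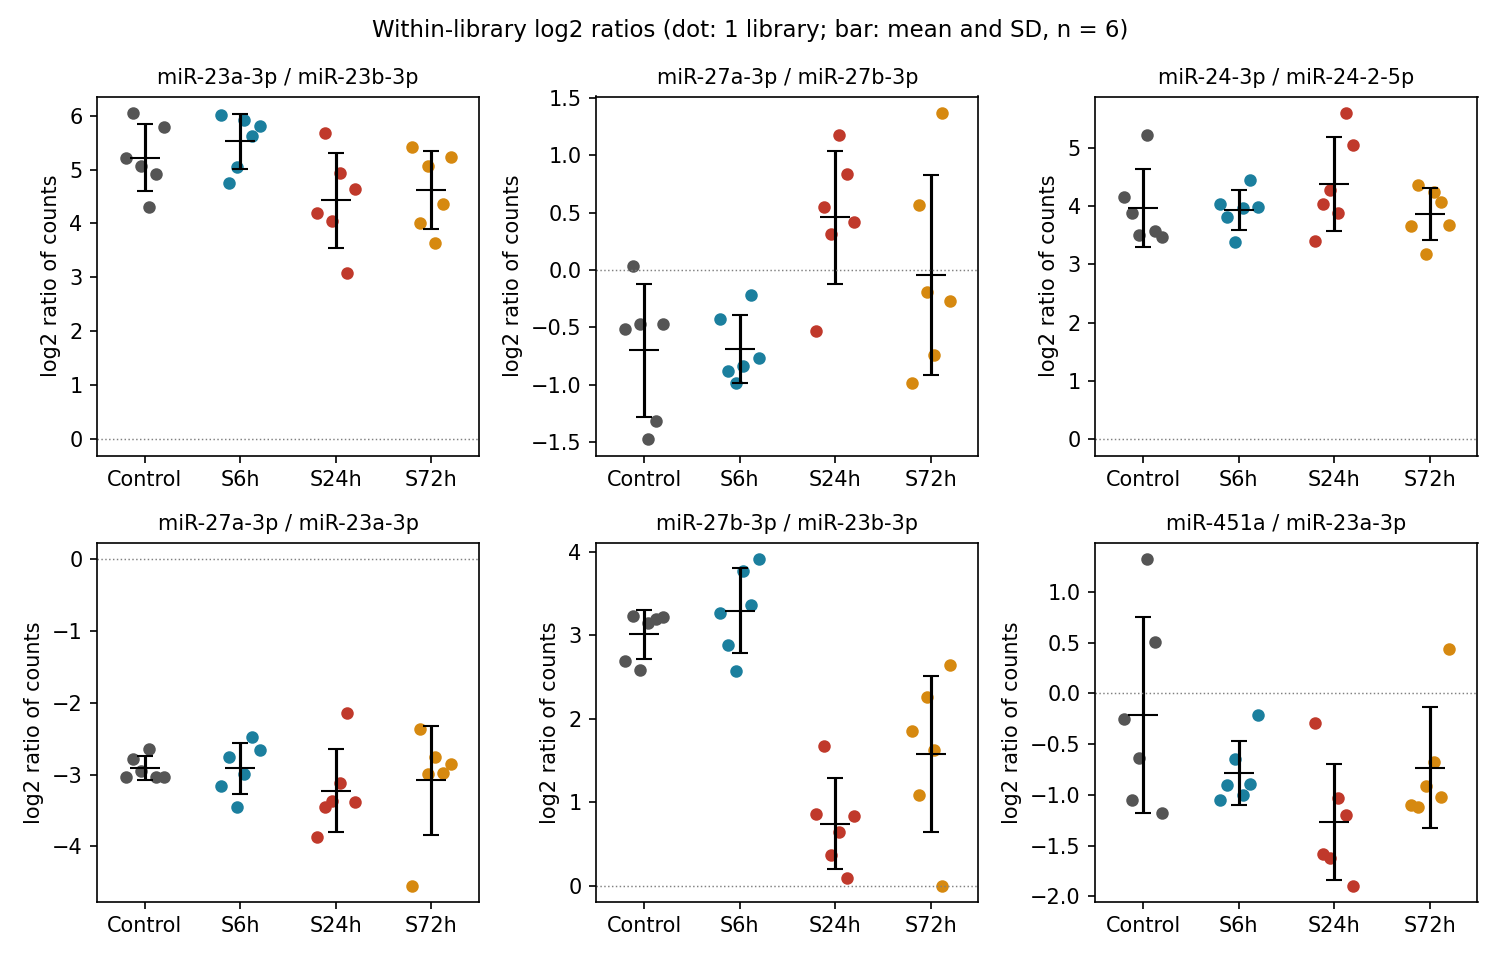
Log2 ratio of counts within each library by group, with 1 dot for each mouse and bars for the mean and SD of 6. The ratio of miR-27b-3p to miR-23b-3p has a mean of 3.01 in Control, 3.30 in S6h, 0.74 in S24h and 1.58 in S72h.

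The ratio of miR-451a to miR-23a-3p ran from 0.441 to 2.50 in Control (median 0.743) and from 0.483 to 0.862 in S6h (median 0.537). It ran from 0.269 to 0.815 in S24h (median 0.385) and from 0.461 to 1.35 in S72h (median 0.51). The groups overlapped, and the highest mice were in Control. The differences of S6h and S72h from Control, -0.57 and -0.52 in log2, did not pass (exact permutation tests, adjusted p = 0.579 and 0.58), nor did that of S72h from S6h at 0.05 (exact permutation test, adjusted p = 0.985).

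Of 6 erythroid miRNAs, all were tested, and 4 were called lower and 0 higher by edgeR for S24h against Control, beside 11.9% of all tested miRNAs called, with a median log2 fold change of -1.24 beside -0.21 for all miRNAs. DESeq2 called 5 of them there, beside 50 of the 252. For S72h against Control edgeR called 1, which was lower, beside 3.57% of all miRNAs, and DESeq2 called 3 of the 6, beside 21 of the 252. Their median log2 fold change was -0.90 there, beside -0.06 for all miRNAs. For S6h against Control 0 of the 6 were called by edgeR or DESeq2 and 0 had an unadjusted p under 0.05, with a median log2 fold change of -0.478 beside -0.02. Their summed level had a median of 144770 CPM in Control (113096 to 198358) and 126714 CPM in S6h (80126 to 142850). It had a median of 67657 CPM in S24h (35397 to 130370) and 68406 CPM in S72h (45196 to 177485). miR-486b-5p was the most abundant of them and none was at 0 in all libraries. For S72h against S6h, the contrast in which miR-27b-3p and miR-24-3p were called, 1 of the 6 was called and lower by edgeR, beside 9.92% of all miRNAs, and DESeq2 also called 1, beside 35 of the 252. The median log2 fold change of the 6 was -0.385 there, beside 0.04 for all. For S24h against S6h edgeR called 2 of the 6, both lower, beside 51 of the 252, and DESeq2 also called 2, beside 57. The median log2 fold change of the 6 was -0.816 in that contrast, beside -0.234 for all. The part of red cell RNA in the members' values was not tested. In bulk EVs, fewer vesicles of a cell type and less RNA per cell or vesicle cannot be told apart.

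Of 5 skeletal muscle miRNAs, 0 were called for S6h, S24h or S72h against Control or for S72h against S6h by edgeR or DESeq2. An unadjusted p under 0.05 was reached by 2 of them for S6h against Control, 0 for S24h and 0 for S72h against Control, and 2 for S72h against S6h, beside 9, 74, 48 and 53 of all 252 miRNAs. In the same order their median log2 fold changes were 1.675, -0.785, 0.362 and -1.508, beside -0.02, -0.21, -0.06 and 0.04 for all miRNAs. Their summed level had medians of 53278, 117926, 33230 and 27754 CPM in Control, S6h, S24h and S72h, with miR-1a-3p the most abundant, and in S72h it ran from 6442 to 237383 CPM. For S24h against S6h edgeR called 3 of the 5, all lower, beside 51 of the 252, and DESeq2 also called 3, beside 57. The median log2 fold change of the 5 was -1.969 there, beside -0.234 for all miRNAs. Of 9 vascular miRNAs, 8 were tested, and by edgeR 1 was higher and 2 were lower for S24h against Control, 0 higher and 1 lower for S72h against Control, and 2 higher and 1 lower for S72h against S6h, beside the same 11.9%, 3.57% and 9.92% of all miRNAs. DESeq2 called 4, 1 and 3 of them in these contrasts, beside 50, 21 and 35 of the 252. For S6h against Control 0 of them were called by edgeR or DESeq2 and 0 had an unadjusted p under 0.05. For S24h against S6h edgeR called 2 higher and 2 lower, and DESeq2 called 4, beside the same 51 and 57 of the 252. The median log2 fold change of the 8 tested was -0.066 there, beside -0.234 for all miRNAs. In the order of the muscle list, their median log2 fold changes were -0.049, 0.053, 0.135 and -0.086. Their summed level had medians of 41783, 48340, 33255 and 32279 CPM. The highest mean over all 24 libraries was that of miR-143-3p. Its own median was 16696 CPM in Control, 33764.6 in S6h, 3682.4 in S24h and 4507.7 in S72h. A mean over all 24 libraries does not show which miRNA led in each group.

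Of 6 leukocyte miRNAs, all were tested. For S6h, S24h or S72h against Control and for S72h against S6h, 0 were called by edgeR or DESeq2. An unadjusted p under 0.05 was reached by 1 for S6h and 1 for S24h against Control. It was reached by 0 for S72h against Control and for S72h against S6h, beside the same numbers of all miRNAs as for the muscle list. Their median log2 fold changes were -0.186, 0.324, -0.056 and 0.227. For S24h against S6h edgeR called 1 higher and 1 lower, beside 51 of the 252, and DESeq2 called 3, beside 57. The median log2 fold change of the 6 was 0.394 there, beside -0.234 for all miRNAs. Their summed medians were 11736, 10282, 11768 and 10926 CPM, with the highest mean over all 24 libraries for miR-223-3p. Of 2 liver miRNAs, 1 was tested and 0 were called by edgeR, while DESeq2 called 1 for S72h against S6h, beside 35 of the 252. Its unadjusted p was under 0.05 for S6h against Control and for S72h against S6h, beside 9 and 53 of the 252. Its log2 fold change was -2.643 for S6h against Control. For S72h against S6h it was 2.75, but -0.91 without S72h replicate 4. With no filter on low counts edgeR called both liver miRNAs higher for S72h against S6h, beside 23 of 667. miR-122-5p made up nearly all of their level, with summed medians of 68536, 13174, 18523 and 8064 CPM and a range from 4768 to 299754 CPM in S72h. The part of these sources in the members' levels was not tested.

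Deviations of log2 CPM from the group means were correlated over the 24 libraries, as a description of mice that share library depth and scaling. Of all pairs of tested miRNAs the median Pearson correlation was 0.026. miR-23a-3p and miR-24-2-5p of the a cluster had 0.88, miR-23a-3p and miR-24-3p 0.812, and miR-24-3p and miR-24-2-5p 0.738. miR-27a-3p followed its cluster neighbours less closely, with 0.536 to miR-23a-3p and 0.402 to miR-24-2-5p. In the b cluster miR-23b-3p and miR-27b-3p had 0.367, while miR-24-3p, which both clusters give, had -0.155 to miR-23b-3p. Across the clusters miR-27b-3p had 0.519 to miR-23a-3p and 0.464 to miR-24-2-5p, and it had 0.501 to miR-24-3p, so its correlation to its own neighbour was not the higher one. The copies miR-27a-3p and miR-27b-3p had 0.398 and the copies miR-23a-3p and miR-23b-3p 0.064.

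Outside the members, the tested miRNAs most like miR-23a-3p in these deviations were miR-574-3p (0.82), miR-181a-5p (0.761), miR-501-3p (0.742), miR-25-3p (0.716) and miR-181d-5p (0.705). Those most like miR-27b-3p were miR-22-3p (0.761), miR-30b-5p (0.733), miR-451a (0.704), miR-152-3p (0.695) and miR-199a-3p (0.689).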

How the data were processed

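The table deposited by the authors holds raw read counts per mature miRNA for 24 serum EV libraries, 1 per mouse. Per the methods, the authors used cutadapt for adapters and Bowtie for alignment to GRCm38, kept alignments of 20 to 24 bases with Samtools and counted them with featureCounts on miRBase. Replicates are separate mice. The members and lists were chosen with earlier results of these data known.

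From these counts, miRNAs with at least 10 CPM in at least 12 libraries (252 of 1966) were fitted in 1 edgeR 4.0.16 quasi-likelihood model of 4 groups with TMM scaling (R 4.3.3), and p-values were adjusted over all 252. The model was tested on simulated data. Levels are CPM of column totals. Ratios were tested by exact permutation in Python 3.11.15. Correlations used log2 of TMM-scaled CPM with 4 CPM added.

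Named miRNAs are the 9 members, the other arms of their hairpins, arms of the antisense hairpins (named after the data were seen), list members used in a ratio or most abundant in their list, and the 5 tested miRNAs most correlated with miR-23a-3p and with miR-27b-3p. Positions of the member hairpins and sequences come from RefSeq, and overlapping genes and the antisense hairpins from Gencode, all on GRCm38. Alternatives were DESeq2 1.42.0, RLE scaling, column totals, other filters, the libraries of 2 groups only, a block for the replicate number, leaving out each library and, for ratios, a pseudocount of 1, medians or, chosen after seeing the data, an adjustment over 14 tests. No 2 libraries were identical.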

Additional observations from a re-analysis of the deposited data

Results flagged for a closer look

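For the 6 members tested and the 6 ratios, the highest and lowest mouse of each group was compared with the rest of its group on the log2 scale. Of 48 such groups 2 held a mouse far from the others, where chance gives about 2.4, so the number of such groups is no more than chance gives. In S72h replicate 1 the ratio of miR-27a-3p to miR-23a-3p was the lowest of its group at 0.0428, and its gap to the next mouse took up 0.714 of the range of the group. In S72h replicate 6 the ratio of miR-451a to miR-23a-3p was the highest of its group at 1.35, with a gap of 0.716 of the range.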

How the results depend on the processing

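The number of miRNAs called for S6h against Control was 2 with no filter on low counts, which tests 667 miRNAs, and 0 otherwise. For S24h against Control it was 50 with DESeq2, beside 30. For S72h against Control, beside 9, it was 0 with the libraries of 2 groups only, 2 with column totals, 21 with DESeq2 and 18 with the stricter filter of 100 CPM on average. The cause was not tested. With 1 library left out it ran from 1 to 14 for S72h against Control, and was 5 or lower without Control replicates 1, 2, 4, 5 or 6, S6h replicates 1, 2 or 5, S24h replicates 1, 3, 4 or 6 or S72h replicates 2, 3 or 5, and 14 without S72h replicate 1. For S72h against S6h it ran from 13 to 35, beside 25, with 14 without S6h replicate 4, 16 without S6h replicate 6 and 13 without S72h replicate 5. For S24h against Control it ran from 20 to 42, and for S6h against Control it was 0 throughout.

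Same-numbered samples are different mice. Over 36 same-numbered pairs the correlation of deviations from the group means had a median of 0.007 (-0.25 to 0.15), against -0.001 for other pairs, and 5 of 24 libraries correlated best with their own number, so the numbers do not pair the samples. With the replicate block the number called for S72h against Control was 1, and the calls of miR-27b-3p and miR-24-3p for S72h against S6h were kept (edgeR adjusted p = 0.0172 and 0.0351). For the ratio of miR-27b-3p to miR-23b-3p the block gave differences of -1.43 and -1.72 for S72h against Control and S6h, the latter with an adjusted p of 0.281 in the exact sign-flip test, whose smallest p is 0.0313 before adjustment over 18 tests, so that missing the threshold there says nothing about stability. For S72h against S6h, at -1.72, the adjusted p was 0.0606 in the exact permutation test with the 4 tests of miR-27b-3p ratios against Control left out, an alternative chosen after seeing the data. With medians the differences were -1.43 and -1.58. With 1 library left out they ran from -1.65 to -1.12 and from -1.93 to -1.40.

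Among the members and the ratios, changes of sign occurred only in values that did not pass the threshold. The log2 fold change of miR-23a-3p for S72h against Control was 0.046 with the stricter filter and 0.068 with 2 groups only, and ran from -0.23 to 0.15 with 1 library left out. For S6h against Control that of miR-24-2-5p ran from -0.035 to 0.40 and that of miR-23b-3p from -0.11 to 0.35. With medians in place of means, the difference in log2 ratio for S6h against Control was -0.31 for miR-27a-3p to miR-27b-3p, 0.25 for miR-24-3p to miR-24-2-5p and 0.11 for miR-27a-3p to miR-23a-3p. For S72h against Control it was 0.15 for miR-24-3p to miR-24-2-5p and 0.069 for miR-27a-3p to miR-23a-3p, and for S72h against S6h it was -0.073 for miR-451a to miR-23a-3p. With 1 library left out, the ratio of miR-27a-3p to miR-27b-3p ran from -0.14 to 0.16 for S6h against Control. That of miR-24-3p to miR-24-2-5p ran from -0.13 to 0.22 for S6h against Control, -0.20 to 0.15 for S72h against Control and -0.19 to 0.060 for S72h against S6h. That of miR-27a-3p to miR-23a-3p ran from -0.0925 to 0.10, -0.31 to 0.12 and -0.31 to 0.13 in the same contrasts, and that of miR-451a to miR-23a-3p from -0.18 to 0.16 for S72h against S6h. With a pseudocount of 1 no ratio changed its sign or its side of the threshold. Low counts limit miR-23b-3p, miR-24-2-5p and the ratios that use them, and the 3 sparse arms could not be compared at this depth.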
